A study of Danio rerio with 8 samples.

Results

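Cyclins, mitotic kinases and chromosome segregation genes were followed through 4 sorted cell populations of zebrafish embryonal rhabdomyosarcoma, a cancer whose cells resemble muscle in development. The genes were picked by a rule on symbol prefixes, which was set with earlier results of these data known. The prefixes covered cyclins A, B, D and E, cyclin-dependent kinases and their inhibitors, the Cdc20 and Cdc25 group, and Aurora, Polo and Bub kinases. They also covered spindle checkpoint and kinetochore proteins, mitotic kinesins, cohesin, condensin and topoisomerase II subunits, and B-type lamins. The set came with its member lmnb2 as marker. The rule found 64 of the 8793 genes with a named probe set. These genes had 95 probe sets, and for the 17 genes with more than 1 the probe set with the highest mean over all 8 arrays was used. The 3 regulators named after Cdk5 (cdk5r2a, cdk5rap2 and cdk5rap3) were left out, and the prefix of separase (espl1) gave no member.

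Fish carrying the myf5-GFP and mylz2-mCherry reporters, of the CG1 strain outcrossed 4 times, had been injected with rag2-kRAS12D at the one-cell stage. The kras transgene is therefore under the promoter of rag2, a gene best known from lymphocytes, and it is shared by all 4 populations. Tumours were passed to syngeneic recipients without the reporters and were taken more than 20 days after transplantation. Cells of the host would therefore not carry the reporter genes. Whether any sorted population still held host cells was not tested, and myeloid marker levels, given below, were highest in mCherry-only cells. Cells were purified by 2 rounds of sorting into GFP-only cells (GFP present, mCherry absent), double-positive cells (both present), mCherry-only cells (mCherry present, GFP absent) and double-negative cells (both absent), and each population has 1 array from each of 2 tumours (n = 2). The sources used here do not give the number of recipient fish behind an array or the age of the fish. GFP reports the promoter of myf5, active in early myogenic cells, and mCherry that of mylz2 (now mylpfa), a fast muscle myosin light chain gene.

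A dividing cell passes through ordered steps that these genes drive. D cyclins and then E and A cyclins activate Cdk4, Cdk6 and Cdk2 for entry into DNA replication, and cyclin B with Cdk1 starts mitosis once Cdc25 phosphatases remove an inhibitory mark. Condensin and topoisomerase II then compact the chromosomes, kinetochore proteins and kinesins attach and move them, and the checkpoint holds the anaphase-promoting complex and its activator Cdc20 until every chromosome is attached. Many of these transcripts accumulate in G2 and M phase and are scarce in cells that have left the cycle, as skeletal muscle cells do when they differentiate.

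The names also bring in genes whose products do other work. Cdk7, Cdk8, Cdk9, Cdk11b and Cdk13 act mainly on transcription or RNA processing, Cdk5 is best known from neurons, and cdkal1 encodes a tRNA-modifying enzyme. The products of plk2b and plk3 belong to stress response members of the Polo family, and Mad2l2 acts in DNA repair.

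The deposited signals lie on a log scale whose base is not stated and which is taken as log2 throughout, so differences are given in log2 units and not as folds. Array medians lay between 4.54 and 4.71. Mean levels of the members had a median of 5.05, against 4.62 over all probe sets. The mean lay under 4.71, the highest array median, for 26 of the 64 members. It lay under 3.38, the lowest lower quartile of any array, for 5 members, and above 6.01, the highest upper quartile, for 14. The probe sets used were therefore not dimmer than the probe sets at large, though single members were dim. For genes with several probe sets the brightest was used, which raises the members' levels in this comparison. No member value was 0. Over the 8 arrays a member ranged over a median of 1.81 log2 units, against 1.91 for all probe sets, from 0.61 for cdk2ap2 to 4.5 for lmnb2.

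The 2 GFP-negative arrays of tumour 2 stood apart from the rest. Their rank correlations with the 4 GFP-positive arrays were 0.553 to 0.708, while the 6 other arrays correlated among themselves at 0.767 to 0.906. The reporter gene mylpfa had log2 levels of 7.40 and 6.23 in GFP-only cells, 10.71 and 10.87 in double-positive cells, 10.80 and 9.21 in mCherry-only cells, and 4.58 and 4.73 in double-negative cells. For myf5 the levels were 5.47 and 5.21 in GFP-only cells, 3.81 and 6.02 in double-positive cells, 3.28 and 4.34 in mCherry-only cells, and 3.96 and 4.07 in double-negative cells, so tumour 1 double-positive cells lay under tumour 2 mCherry-only cells for that gene. The mean level of 17 measured muscle genes (of 20 listed) was 6.19 and 5.52 in GFP-only cells, 7.80 and 7.51 in double-positive cells, 7.54 and 6.60 in mCherry-only cells, and 5.02 and 3.83 in double-negative cells.

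Markers of other cell types differed widely between the populations. The mean level of 18 measured myeloid genes (of 28 listed) was 3.74 and 3.80 in GFP-only cells, 4.90 and 5.30 in double-positive cells, 8.19 and 8.29 in mCherry-only cells, and 7.31 and 6.80 in double-negative cells. For 14 measured erythroid genes (of 16) it was 2.75 and 3.18 in GFP-only cells, 3.11 and 3.21 in double-positive cells, 3.85 and 4.69 in mCherry-only cells, and 5.66 and 6.46 in double-negative cells. Epithelial and pancreas genes (12 of 12 measured) averaged 6.29 and 5.86 in double-negative cells and between 3.85 and 4.54 in the 6 other arrays. Lymphoid genes (6 measured of 14) averaged 4.47 and 4.44 in double-negative cells and 2.30 to 3.56 elsewhere. Endothelial genes (6 measured of 15) averaged 3.30 to 4.68 over all arrays. The only listed marker with values of 0 was cxcr4a, in both double-positive arrays.

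**Figure D1:**
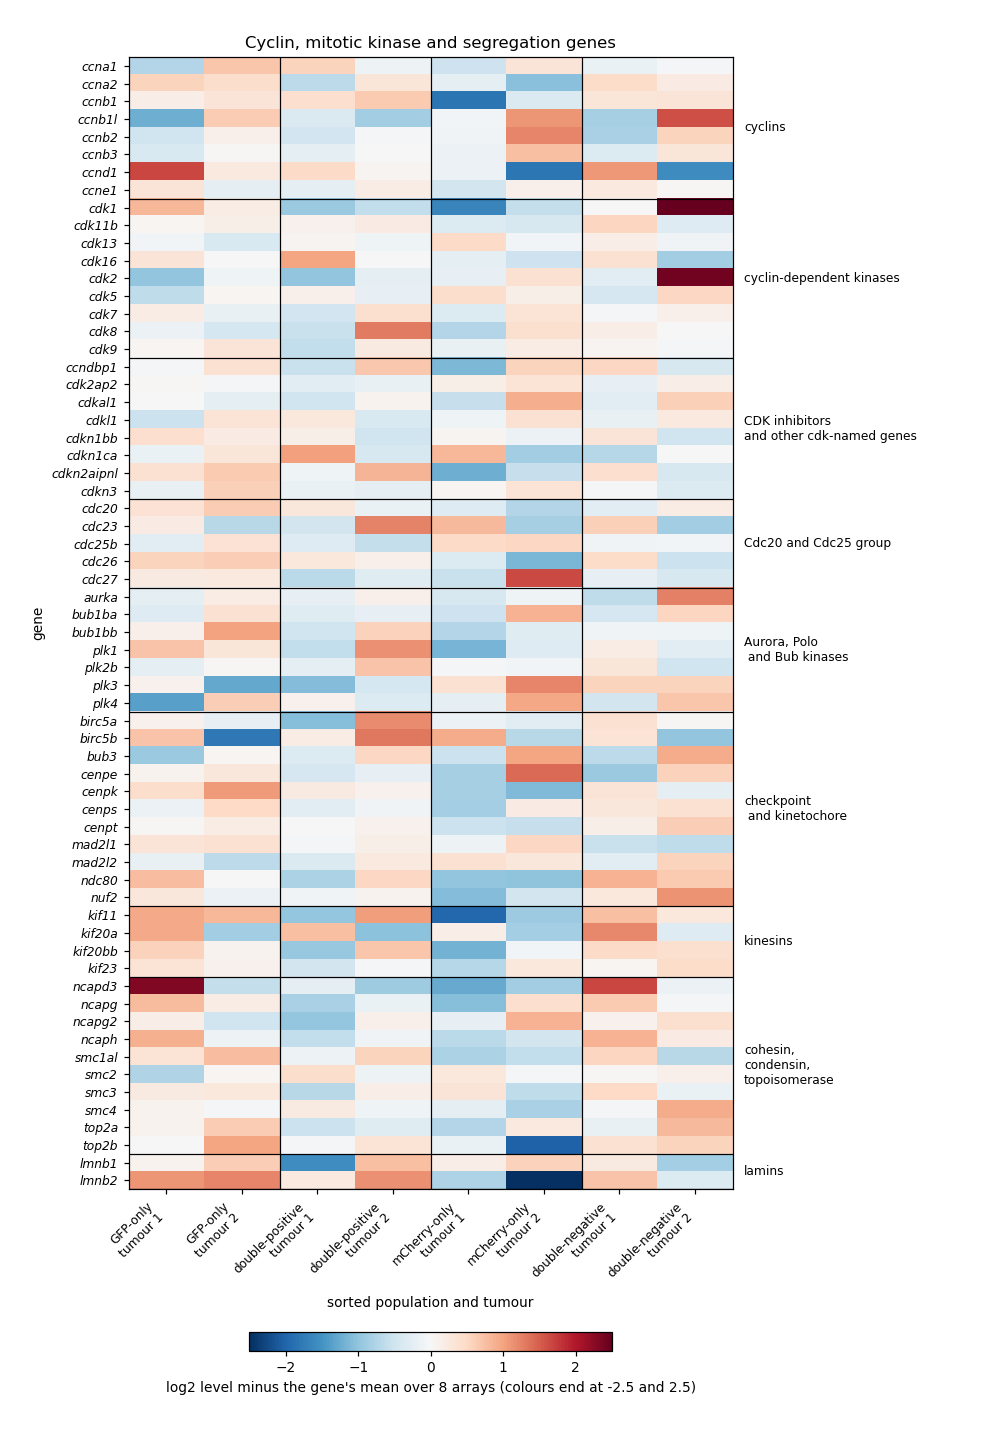
Log2 level of each of the 64 genes in each of the 8 arrays, minus that gene's mean over the arrays, with genes in rows grouped by role and arrays in columns by population and tumour (red above the gene's mean, blue under it; colours end at -2.5 and 2.5). Both mCherry-only columns are blue for lmnb2, kif11, ndc80, cenpk and nuf2, and the 2 tumours of one population often differ in colour.

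mCherry-only cells, whose labels give the muscle reporter without the myf5 reporter, had the lowest level of the 4 populations in both tumours for 18 of the 64 members, a share of 28.1%. Over all probe sets that share was 12.2%, and over the 8793 named genes counted once it was 14.8%. The 18 genes encode the lamin Lmnb2, the kinesins Kif11 and Kif20bb, the kinetochore proteins Ndc80, Nuf2, Cenpk and Cenpt, the kinases Plk1, Bub1bb and Cdk11b, cyclins B1 and D1, Cdc20, the complex subunit Cdc26, the condensin subunits Ncaph and Smc4, topoisomerase IIb (Top2b), and Cdkn2aipnl. GFP-only cells were highest in both tumours for 8 members (12.5%, against 8.62% of all probe sets), namely ccna2, ccnd1, cdc20, cdc26, bub1bb, cenpk, cdkn1bb and lmnb2. mCherry-only cells were highest for 5 members (7.81%, against 12.5%), ccnb2, ccnb3, cdc25b, cdk13 and cdk2ap2. Double-negative cells were highest for 3 (cenpt, kif20a and ndc80; all probe sets 6.17%) and double-positive cells for ccnb1 (all probe sets 5.41%). The lowest level was in GFP-only cells for bub3 and cdk13 (all probe sets 7.99%), in double-positive cells for cdc25b and cdk2ap2 (3.64%) and in double-negative cells for mad2l1 (6.44%). The counts describe the probe sets used, in a set chosen with earlier results of these data known, and carry no test. For some genes, such as cdk13, cdkn1bb and ccnd1, another probe set gave another order.

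**Figure D2:**
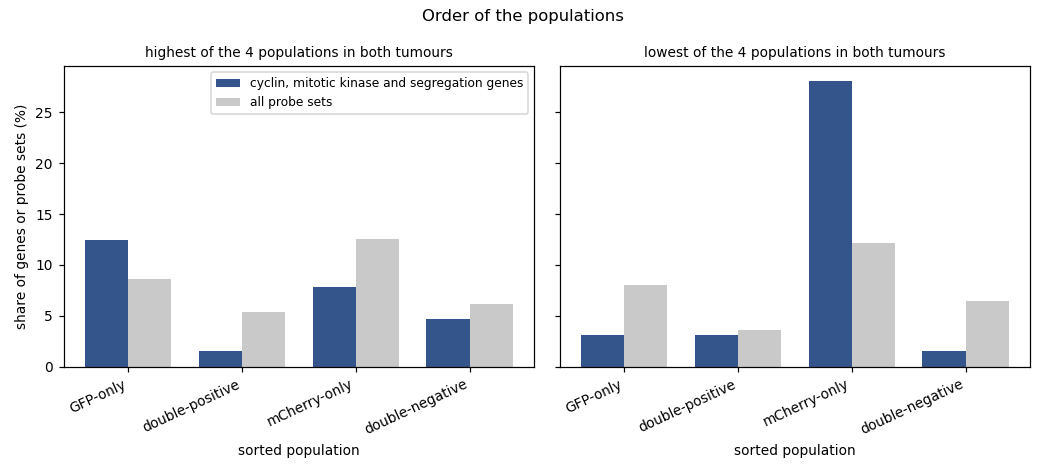
Share of the 64 genes (blue) and of all 15502 probe sets (grey), in percent, for which a population had the highest (left) or the lowest (right) level of the 4 populations in both tumours. The tallest blue bar is mCherry-only cells as the lowest population, 28.1% against 12.2% of all probe sets.

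The comparison of GFP-only with mCherry-only cells sets sorted cells marked by the early myogenic promoter alone against those marked by the muscle promoter alone. None of the 64 members passed limma's adjusted p of 0.05, where 0.858% of all probe sets did. At an unadjusted p under 0.05, 8 members were higher in GFP-only cells and 0 lower, against 5.88% and 5.37% of all probe sets, and with the tumour as a block the counts were 11 higher (all probe sets 9.57%) and 1 lower (7.93%), again with 0 members past the adjusted threshold (1.6%). The median difference over the members was 0.22, against -0.08 over all probe sets, and it was 0.49 in tumour 1 and 0.14 in tumour 2. Both GFP-only arrays lay above both mCherry-only arrays for 24 members (all probe sets 21.9%) and under them for 5 (21.5%). Without the 2 arrays that stood apart the median was 0.45, and without the tumour 1 mCherry-only array it was 0.08. In bulk RNA, fewer cells expressing a gene and less RNA per cell cannot be told apart. By limma, 12 of the 18 myeloid genes passed the adjusted threshold, all with lower values in GFP-only cells, and their part in the members' differences was not tested.

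Lmnb2, a B-type lamin of the nuclear envelope, had the largest range of the set. Its log2 levels were 7.79 and 7.92 in GFP-only cells, 6.93 and 7.83 in double-positive cells, 5.92 and 3.42 in mCherry-only cells, and 7.40 and 6.35 in double-negative cells (tumour 1, then tumour 2). Both mCherry-only arrays lay under all 6 others, and the tumour 2 array lay 2.5 under that of tumour 1. GFP-only minus mCherry-only cells came to 3.18 ± 0.81 (limma SE; adjusted p = 0.150, and 0.0721 with the tumour as a block). The difference was 1.94 without the tumour 2 mCherry-only array. Without the tumour 1 mCherry-only array it was 4.44, and each of these 2 values rests on 1 mCherry-only array. Against mCherry-only cells, double-positive cells differed by 2.71 ± 0.81 (adjusted p = 0.391, limma). The other B-type lamin gene, lmnb1, showed no such pattern: its levels were 6.06 and 6.59 in GFP-only cells, 4.42 and 6.74 in double-positive cells, 6.14 and 6.56 in mCherry-only cells, and 6.21 and 5.13 in double-negative cells. Its mCherry-only values lay within 0.1 of the GFP-only values of the same tumour, and the lowest array was double-positive cells of tumour 1.

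The 4 kif-named kinesins are motor proteins of the spindle and the midzone. For all 4 probe sets used, the GFP-only mean was above the mCherry-only mean (46.5% of all probe sets), with a median difference of 0.71. The tumours did not agree throughout. In tumour 2 the GFP-only level was under the mCherry-only level for kif23 (4.72 against 4.88) and kif20a (5.80 against 5.82). Cenpe, a kinesin counted with the kinetochore genes, had a GFP-only mean of 5.0 and an mCherry-only mean of 5.11, but its tumours had opposite signs. Its GFP-only level was 4.90 against 3.99 in mCherry-only cells in tumour 1, and 5.10 against 6.23 in tumour 2. Kif11, which slides spindle microtubules apart to separate the poles, had log2 levels of 6.06 and 5.93 in GFP-only cells, 4.13 and 6.15 in double-positive cells, 3.14 and 4.20 in mCherry-only cells, and 5.85 and 5.37 in double-negative cells. GFP-only and double-negative arrays lay together above both mCherry-only arrays, and the 2 double-positive arrays lay far apart. The difference between GFP-only and mCherry-only cells was 2.32 ± 0.72 (adjusted p = 0.260, limma). Kif20bb had levels of 5.85 and 5.35 in GFP-only cells, 4.31 and 5.95 in double-positive cells, 4.08 and 5.19 in mCherry-only cells, and 5.74 and 5.66 in double-negative cells, a difference of 0.96 between GFP-only and mCherry-only cells. For kif23, a motor of the central spindle, the difference was 0.46, but its other probe set gave -0.64. Kif20a, needed for cytokinesis, had levels of 7.63 and 5.80 in GFP-only cells, 7.44 and 5.66 in double-positive cells, 6.84 and 5.82 in mCherry-only cells, and 7.88 and 6.36 in double-negative cells. Every tumour 1 array lay above every tumour 2 array for this probe set of the gene.

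The 11 checkpoint and kinetochore members divided. Ndc80 and Nuf2 form the part of the Ndc80 complex that binds microtubules. For ndc80 the log2 levels were 5.07 and 4.29 in GFP-only cells, 3.51 and 4.82 in double-positive cells, 3.33 and 3.31 in mCherry-only cells, and 5.17 and 4.96 in double-negative cells. Its partner nuf2 had 5.47 and 5.05 in GFP-only cells, 5.10 and 5.28 in double-positive cells, 4.11 and 4.74 in mCherry-only cells, and 5.46 and 6.31 in double-negative cells. In each gene both mCherry-only arrays were the lowest of all 8, and the closest array of another population was 0.18 above for ndc80 and 0.31 above for nuf2. Ndc80 differed by 1.36 ± 0.61 between GFP-only and mCherry-only cells (adjusted p = 0.437, limma), and nuf2 by 0.84.

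Cenpk, a subunit of the inner kinetochore network, had levels of 3.20 and 3.83 in GFP-only cells, 3.0 and 2.88 in double-positive cells, 1.93 and 1.66 in mCherry-only cells, and 3.09 and 2.55 in double-negative cells. GFP-only arrays were the 2 highest and mCherry-only arrays the 2 lowest, but 7 of the 8 values lay under 3.38, the lowest lower quartile of any array, where signals are dim. GFP-only minus mCherry-only cells came to 1.72 ± 0.54 (adjusted p = 0.265, limma). The inner kinetochore genes cenpt and cenps had differences of 0.67 and 0.50 in that comparison. Other members of the group did not follow in their means. The difference was 0.15 for mad2l1, which encodes the core Mad2 checkpoint protein. It was 0.15 for birc5a and -0.66 for birc5b, which encode the 2 survivin copies of the chromosomal passenger complex. It was -0.11 for cenpe, a kinesin of the kinetochore whose tumours had opposite signs, -0.66 for bub3, a checkpoint protein, and -0.74 for mad2l2. Of the 8 values, 7 lay under 3.38 for birc5b and 6 for mad2l2, so these genes were also dim. Mad2l1 had its lowest level in double-negative cells, at 5.02 and 4.95, against 5.44 to 6.10 in the 6 other arrays.

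In the group of 10 cohesin, condensin and topoisomerase genes, 8 had a GFP-only mean above the mCherry-only mean, with a median difference of 0.71. Over all probe sets 46.5% had a positive difference. Ncapd3, a subunit of condensin II, had log2 levels of 7.58 and 4.67 in GFP-only cells, 5.04 and 4.39 in double-positive cells, 4.02 and 4.41 in mCherry-only cells, and 6.95 and 5.12 in double-negative cells. The high values lay in the GFP-only and double-negative cells of tumour 1, and the tumour 2 arrays spanned no more than 0.73. For ncaph, the kleisin subunit of condensin I, the levels were 5.94 and 4.93 in GFP-only cells, 4.44 and 4.96 in double-positive cells, 4.38 and 4.59 in mCherry-only cells, and 5.92 and 5.26 in double-negative cells. The same 2 tumour 1 arrays were highest. Ncapg, another condensin I subunit, showed 6.13 and 5.53 in GFP-only cells, 4.53 and 5.17 in double-positive cells, 4.28 and 5.76 in mCherry-only cells, and 5.98 and 5.30 in double-negative cells, so the tumours gave opposite orders of GFP-only and mCherry-only cells. Of the others, top2a, smc4 and smc3 gave 0.61, 0.55 and 0.40 for GFP-only minus mCherry-only cells, smc2 -0.47 and ncapg2, of condensin II, -0.50. For smc3, smc2 and ncapg2 the tumours had opposite signs too.

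Smc1al, the cohesin member of the group with 5 probe sets, had levels of 8.59 and 9.02 in GFP-only cells, 8.13 and 8.81 in double-positive cells, 7.45 and 7.63 in mCherry-only cells, and 8.79 and 7.56 in double-negative cells. The difference between GFP-only and mCherry-only cells was 1.26, and its 4 other probe sets gave 0.43 to 1.38, all of one sign. Top2b, the form of topoisomerase II also used by cells that do not divide, had levels of 6.04 and 7.04 in GFP-only cells, 5.99 and 6.38 in double-positive cells, 5.88 and 4.02 in mCherry-only cells, and 6.42 and 6.60 in double-negative cells. Its difference of 1.59 ± 0.69 (adjusted p = 0.433, limma) rested on the tumour 2 mCherry-only array, without which it was 0.66. The 4 other probe sets of top2b gave -0.47 to 0.32, and the mean of all 5 gave 0.242.

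The 8 cyclins did not move as one. Cyclin B1 (ccnb1), the partner of Cdk1 at entry into mitosis, had log2 levels of 4.60 and 4.76 in GFP-only cells, 4.86 and 5.08 in double-positive cells, 2.60 and 4.07 in mCherry-only cells, and 4.73 and 4.75 in double-negative cells. The 6 arrays outside mCherry-only cells lay within 0.48 of each other, and both mCherry-only arrays lay under them. GFP-only minus mCherry-only cells was 1.34 ± 0.60 (adjusted p = 0.439, limma), 0.61 without the tumour 1 mCherry-only array and 2.08 without that of tumour 2. Cyclin A2 (ccna2), which acts in S and G2 phase, had levels of 5.46 and 5.34 in GFP-only cells, 4.25 and 5.21 in double-positive cells, 4.67 and 3.86 in mCherry-only cells, and 5.37 and 5.12 in double-negative cells, a difference of 1.14 for GFP-only minus mCherry-only cells. Cyclin D1 (ccnd1), which links growth signals to cell cycle entry, had 8.40 and 6.97 in GFP-only cells, 7.21 and 6.81 in double-positive cells, 6.58 and 4.92 in mCherry-only cells, and 7.81 and 5.17 in double-negative cells. In the probe set used, its populations kept the order with GFP-only highest and mCherry-only lowest in both tumours, and tumour 1 was above tumour 2 in each. The other ccnd1 probe set also had mCherry-only lowest in both tumours. Its GFP-only level in tumour 2 was 5.33, under the 5.65 of double-positive cells. The other B cyclins lay the other way, with GFP-only minus mCherry-only differences of -0.74 for ccnb2, -0.48 for ccnb3 and -0.81 for ccnb1l. The sign for ccnb3 depended on the probe set, since its 3 others gave -0.64, 0.33 and 0.64. Ccna1, an A cyclin known from germ cells in mammals, differed by 0.08 and ccne1 by 0.21. All 8 ccna1 values lay under 3.38, the lowest lower quartile of any array.

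Cdk1, the kinase of mitotic entry, had the second largest range of the set. Its log2 levels were 5.23 and 4.60 in GFP-only cells, 3.48 and 3.79 in double-positive cells, 2.76 and 3.82 in mCherry-only cells, and 4.41 and 7.18 in double-negative cells. All 4 arrays without mCherry lay above all 4 arrays with it, and the tumour 2 double-negative array lay 1.95 above the next. Cdk2, the S phase kinase, had 2.93 and 3.81 in GFP-only cells, 2.93 and 3.68 in double-positive cells, 3.70 and 4.29 in mCherry-only cells, and 3.62 and 6.33 in double-negative cells, and its highest array was the same one as for cdk1. In the probe sets used, the transcription kinases and cdk5 and cdk16 covered smaller ranges. Their GFP-only minus mCherry-only differences lay between -0.59 (cdk5) and 0.53 (cdk16). Other probe sets of cdk13 had means of 4.71 in GFP-only and 3.21 in mCherry-only cells, and 3.28 and 4.3, so its sign depended on the probe set. The other probe set of cdk11b had 7.11 and 5.765, and that of cdk8 5.525 and 4.25. The cdk11b probe set used had levels of 7.58 and 7.68 in GFP-only cells, 7.64 and 7.74 in double-positive cells, 7.19 and 7.12 in mCherry-only cells, and 8.07 and 7.20 in double-negative cells.

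Among Cdk inhibitors and other cdk-named genes, the largest population difference of a probe set used ran from 0.23 (cdkl1) to 1.41 (cdkn2aipnl). For cdkn1ca it was 0.665. Cdkn1bb, a p27 gene that restrains Cdk2, had levels of 8.60 and 8.40 in GFP-only cells and 8.33 and 7.69 in double-positive cells. Its mCherry-only levels were 8.25 and 8.04, and its double-negative levels 8.5 and 7.69. In the probe set used, no comparison of populations gave a difference over 0.49. The other cdkn1bb probe set was about as bright (mean 8.17 against 8.19) and gave -0.59 for mCherry-only minus double-negative cells. Its lowest level in tumour 1 was that of GFP-only cells, at 7.88. Cdkn1ca, a p57 gene, differed by 0.09 between GFP-only and mCherry-only cells, and cdkn3, a Cdk phosphatase, by 0.00. For both genes the 2 tumours had opposite signs. Cdkn1ca had 4.46 in GFP-only against 5.45 in mCherry-only cells in tumour 1, and 4.92 against 3.75 in tumour 2. The levels of cdkn3 were 4.32 against 4.57 and 5.11 against 4.85. Cdkn2aipnl, which is named after a protein that binds the product of CDKN2A in human cells, had levels of 6.95 and 7.24 in GFP-only cells, 6.48 and 7.42 in double-positive cells, 5.36 and 6.01 in mCherry-only cells, and 7.0 and 6.17 in double-negative cells. That difference was 1.41 ± 0.59 (adjusted p = 0.411, limma). The remaining cdk-named members had GFP-only minus mCherry-only differences between -0.28 (cdkal1) and 0.45 (ccndbp1).

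In the Cdc20 and Cdc25 group, cdc20, the activator of the anaphase-promoting complex, had levels of 4.86 and 5.14 in GFP-only cells, 4.79 and 4.33 in double-positive cells, 4.18 and 3.77 in mCherry-only cells, and 4.23 and 4.69 in double-negative cells. Both GFP-only arrays lay above all 6 others, by as little as 0.07. Cdc26, a small subunit of that complex, had 7.17 and 7.23 in GFP-only cells, 6.89 and 6.75 in double-positive cells, 6.27 and 5.48 in mCherry-only cells, and 7.07 and 6.08 in double-negative cells, and GFP-only minus mCherry-only cells was 1.32 ± 0.57 (adjusted p = 0.430, limma). The subunit genes cdc23 and cdc27 had differences of -0.24 and -0.32, with opposite signs in the 2 tumours. Cdc27 had 4.41 and 4.42 in GFP-only cells against 3.63 and 5.83 in mCherry-only cells. Cdc23 had 2.68 and 1.77 against 3.28 and 1.64, and 7 of its 8 values lay under 3.38, the lowest lower quartile of any array. Cdc25b, the phosphatase that activates Cdk1, ran the other way, with levels of 6.65 and 7.30 in GFP-only cells, 6.61 and 6.35 in double-positive cells, 7.42 and 7.46 in mCherry-only cells, and 6.85 and 6.87 in double-negative cells. Its mCherry-only arrays were the 2 highest, and all 3 of its probe sets had a negative GFP-only minus mCherry-only difference (-0.82 to -0.46).

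Of the 7 Aurora, Polo and Bub kinases, plk1, the main mitotic Polo kinase, had levels of 5.08 and 4.68 in GFP-only cells, 3.75 and 5.52 in double-positive cells, 3.21 and 4.05 in mCherry-only cells, and 4.55 and 4.11 in double-negative cells. The double-positive arrays differed by 1.77, more than GFP-only and mCherry-only cells, whose means differed by 1.25. Bub1bb, a checkpoint kinase gene (BubR1), had 4.89 and 5.75 in GFP-only cells, 4.26 and 5.33 in double-positive cells, 4.03 and 4.46 in mCherry-only cells, and 4.66 and 4.65 in double-negative cells, a difference of 1.08, while bub1ba gave -0.15. Aurka, the Aurora A kinase of spindle poles, differed by 0.22 and was highest in double-negative cells of tumour 2, at 6.69 against 4.78 to 5.61 elsewhere. Plk4, which starts centriole duplication, differed by -0.73. Plk3 lay opposite to plk1, with levels of 8.25 and 6.86 in GFP-only cells, 7.06 and 7.69 in double-positive cells, 8.51 and 9.36 in mCherry-only cells, and 8.69 and 8.69 in double-negative cells. All 4 GFP-positive arrays were under all 4 GFP-negative arrays for plk3. Plk2b stayed between 7.07 and 8.28.

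**Figure D3:**
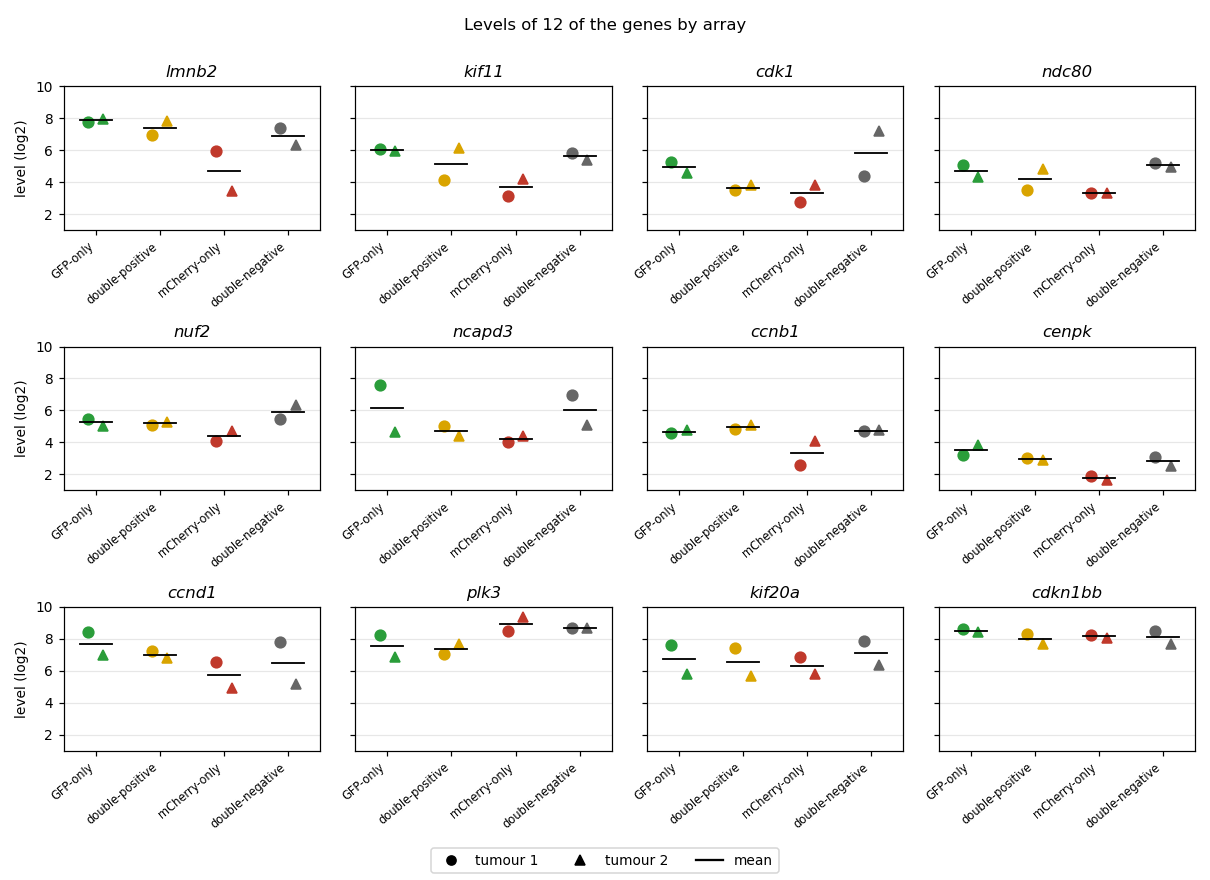
Log2 levels of 12 of the genes in the 4 populations, with 1 point for each tumour (marker shape) and a bar at the mean of the 2. Lmnb2, kif11, ndc80, cenpk and ccnb1 have their 2 lowest points or lowest mean in mCherry-only cells, plk3 is lower in both GFP-positive populations, and cdk1 reaches 7.18 in double-negative cells of tumour 2.

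**Figure D4:**
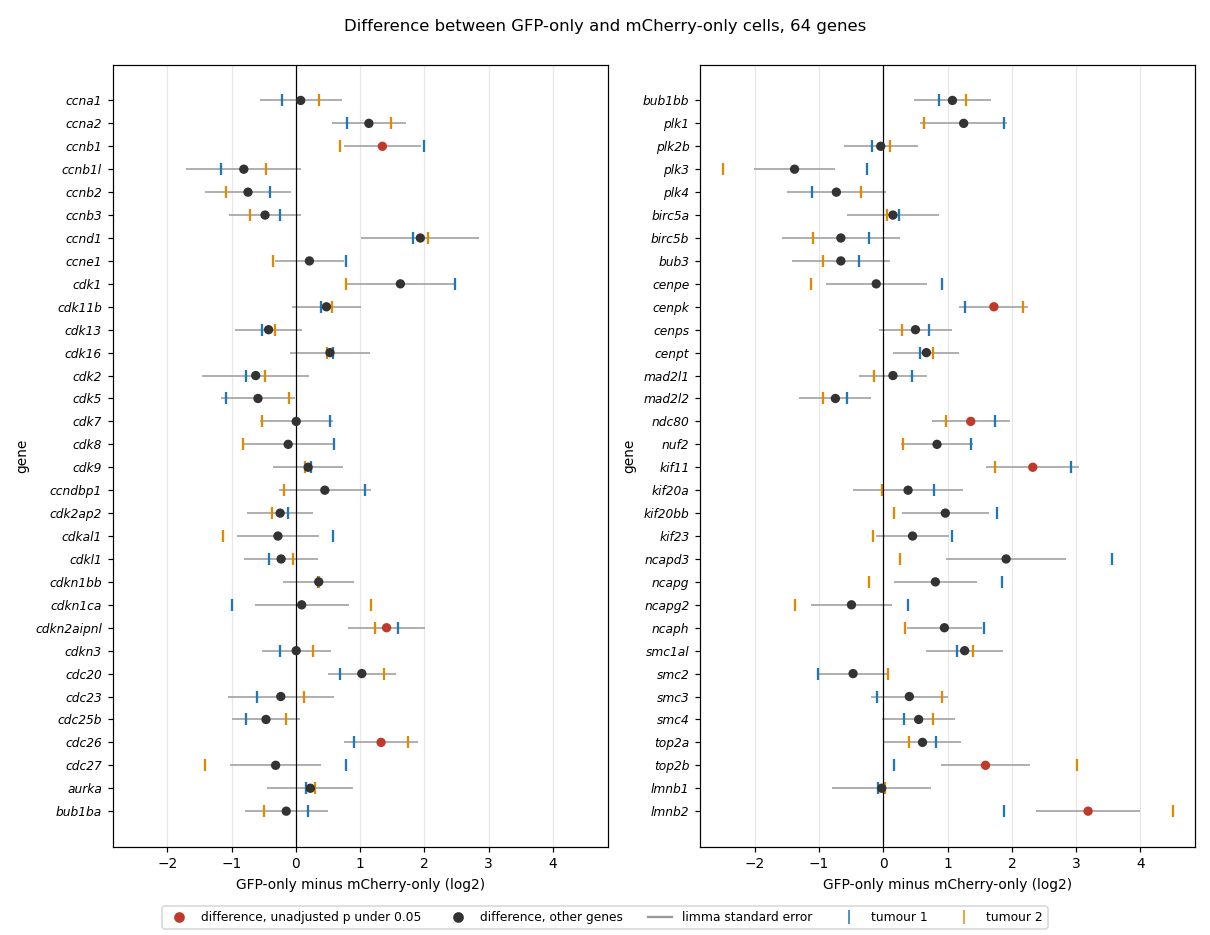
GFP-only minus mCherry-only difference in log2 units for each of the 64 genes, grouped by role, with the fitted difference and its limma SE as a bar and the value in each tumour as a separate mark. The largest difference is that of lmnb2 at 3.18 ± 0.81, the marks of the 2 tumours often lie on either side of 0, and no gene passed limma's adjusted threshold of 0.05.

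The comparison of mCherry-only with double-negative cells, the population with neither reporter, used the same 2 mCherry-only arrays and is not independent of the last. None of the members passed limma's adjusted threshold (all probe sets 0.277%). At an unadjusted p under 0.05 there were 7 lower (all probe sets 2.46%) and 0 higher (3.72%), the median difference was -0.31 (0.04 over all probe sets), and it was -0.34 in tumour 1 and -0.12 in tumour 2. Both mCherry-only arrays lay under both double-negative arrays for 21 members (all probe sets 13.6%) and above them for 3 (16.2%). The 7 were cdk1 (-2.5 ± 0.84, adjusted p = 0.545, limma), lmnb2 (-2.20 ± 0.81, 0.633), kif11 (-1.94 ± 0.72, 0.650), ndc80 (-1.74 ± 0.61, 0.566), nuf2 (-1.46 ± 0.56, 0.677), top2b (-1.56 ± 0.69, 0.792) and ccnb1 (-1.40 ± 0.60, 0.763). In the probe sets used, all 4 kif-named kinesins had a negative difference, with a median of -0.93. So had 8 of the 10 cohesin, condensin and topoisomerase genes (median -0.63). Over all probe sets 47.2% were negative. In smc1al and ncaph every probe set had the lower mean in mCherry-only cells. The sign differed between probe sets of top2a, top2b and smc2. The other top2b probe sets had mCherry-only and double-negative means of 5.81 and 5.42, 5.195 and 4.695, 5.075 and 4.465, and 4.115 and 4.405. For smc2 they were 4.805 and 4.765 in the probe set used and 2.725 and 5.425 in the other. The other probe sets of kif23 and kif20a gave 0.39 and 0.045, and that of kif20bb gave -0.39. The kinetochore kinesin gene cenpe also lay the other way, with a double-negative mean of 4.635 and an mCherry-only mean of 5.11. The value of cdk1 was -1.12 without the tumour 2 double-negative array and -3.89 without that of tumour 1, so it depended on which array was left. Without the tumour 2 mCherry-only array lmnb2 was at -0.96 and top2b at -0.63, and without the tumour 1 mCherry-only array ccnb1 was at -0.67. Double-negative cells also had the higher erythroid, lymphoid, epithelial and pancreas marker levels given above, whose part was not tested.

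GFP-only and double-negative cells, both without mCherry, gave 0 of 64 members at limma's adjusted threshold (all probe sets 0.516%) and 0 at an unadjusted p under 0.05 in either direction (1.93% higher and 2.98% lower of all probe sets). The median difference was -0.03, with 0.01 over all probe sets. Kif11 differed by 0.38, ndc80 by -0.38, ccnb1 by -0.06 and kif20bb by -0.10, while cdk2 differed by -1.60 and ccnd1 by 1.2. Without the tumour 2 double-negative array those values were -0.25 for cdk2 and -0.12 for ccnd1, whose sign then turned. The GFP-only arrays lay above the double-negative arrays for 9 members (all probe sets 15.9%) and under them for 2 (13.4%). This does not show that the 2 populations are alike, since a limma SE of 0.54 to 0.84, as for the genes named above, leaves room for differences of more than 1 log2 unit.

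Double-positive cells, which carry both reporters, were compared with each of the other populations. GFP-only minus double-positive cells gave 0 members past the adjusted threshold of limma (all probe sets 0.00645%) and 0 at an unadjusted p under 0.05 (0.677% higher, 1.43% lower), with a median difference of 0.24 (-0.03 over all probe sets). GFP-only arrays lay above double-positive arrays for 15 members (all probe sets 11.9%) and under them for 1 (13.1%). The median was 0.36 in tumour 1 and 0.12 in tumour 2, and -0.01 without the tumour 1 double-positive array. Double-positive minus mCherry-only cells gave 0 adjusted (all probe sets 0.329%) and, at an unadjusted p under 0.05, 2 higher (3.74%), lmnb2 and ccnb1 (1.64 ± 0.60, adjusted p = 0.546, limma), and 1 lower (3.95%), plk3 (-1.56 ± 0.63, 0.609). The lmnb2 value was 1.46 without the tumour 2 mCherry-only array, and the ccnb1 value was 0.90 without the tumour 1 mCherry-only array. The median there was 0.22 (-0.02 over all probe sets), -0.03 without the tumour 1 mCherry-only array and -0.10 without the tumour 2 double-positive array. Its arrays did not overlap for 15 members on the higher side (all probe sets 19.5%) and 8 on the lower (19.4%). Double-positive minus double-negative cells gave 0 adjusted (0.542%), and by the unadjusted p 0 higher (2.65%) and 1 lower (2.64%), which was cdk1 at -2.16 ± 0.84 (adjusted p = 0.791, limma). Without the tumour 2 double-negative array that value was -0.78. Without the tumour 1 one it was -3.54. The double-positive arrays were under the double-negative arrays for 13 members (all probe sets 12.5%) and above them for 2 (14.2%).

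With the populations joined by GFP, the 2 GFP-positive against the 2 GFP-negative ones, 0 members passed limma's adjusted threshold (all probe sets 0.839%). At an unadjusted p under 0.05, 2 were higher (6.29%), lmnb2 at 1.84 ± 0.57 (adjusted p = 0.267, limma) and cenpk at 0.92 ± 0.38 (0.400), and 1 was lower (5.01%), plk3 at -1.35 ± 0.45 (0.302). The median member difference was 0.02, against -0.01 over all probe sets. Plk3 was the only member whose GFP-positive and GFP-negative arrays did not overlap (lower: 2.89% of all probe sets; higher: 2.34%). Among the role groups, the difference farthest from 0 was 1.23 for ccnd1 in the cyclins (0.15 without the 2 arrays that stood apart), -1.15 for cdk2 in the kinases (-0.32 without them), 0.93 for kif11 (0.42 without the tumour 2 double-positive array), 0.89 for cdkn2aipnl, 0.78 for cdc26 (0.34 without them) and 0.78 for smc1al (0.47 without the tumour 2 double-negative array). For lmnb2 the value without those 2 arrays was 0.96.

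GFP-only cells against the mean of the 3 other populations gave 0 members past limma's adjusted threshold (all probe sets 0.271%) with 2 higher (2.2%) and 0 lower (3.65%) by the unadjusted p. These were lmnb2 at 1.55 ± 0.66 (adjusted p = 0.826, limma) and cenpk at 1.00 ± 0.44 (0.838). The lmnb2 value was 0.96 without the 2 arrays that stood apart. Cdc20, cdc26 and cenpk were the 3 members whose GFP-only arrays lay above all others (all probe sets 3.66%), and 0 members had them under all others (3.05%).

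When the populations were joined by mCherry instead, a comparison chosen after the values were seen, the members leaned to the mCherry-negative side. GFP-only and double-negative cells minus double-positive and mCherry-only cells had a median of 0.21 (-0.04 over all probe sets), 0.48 in tumour 1 and 0.16 in tumour 2, and 0.12 without the tumour 1 double-positive array. No member passed limma's adjusted threshold (all probe sets 0.284%), while by the unadjusted p 6 were higher (2.04%) and 0 lower (3.43%). The 6 were cdk1 (1.89 ± 0.60, adjusted p = 0.528, limma), ncapd3 (1.62 ± 0.66, 0.839), kif11 (1.40 ± 0.51, 0.715), lmnb2 (1.34 ± 0.57, 0.871), ndc80 (1.13 ± 0.43, 0.759) and ncaph (0.92 ± 0.41, 0.908). Cdk1 was the only member without overlap between the 4 arrays of each side (higher: 1.02% of all probe sets; lower: 1.71%). Without the tumour 1 double-negative array its value was 2.58 and without that of tumour 2 it was 1.2. For ncapd3 the value was 0.89 without the tumour 1 GFP-only array. For lmnb2 it was 0.72 without the tumour 2 mCherry-only array, and for kif11 it was 0.89 without the tumour 1 double-positive array. The interaction of both reporters was also added after the values were seen. It was taken as GFP-only plus mCherry-only minus double-positive minus double-negative cells, so a negative value means lower levels in the single-reporter populations. This gave 0 members and 0 probe sets past limma's adjusted threshold (0% of all probe sets). At an unadjusted p under 0.05 there were 0 members (194 higher and 162 lower of all 15502 probe sets). With the tumour as a block there was 1 member, on the negative side (338 higher and 286 lower of all probe sets).

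With the tumour as a block, 0 of the 64 members passed limma's adjusted threshold in each comparison named so far, the interaction apart. Of all probe sets, 1.6% did so for GFP-only minus mCherry-only, 0.781% for GFP-only minus double-negative, 0.116% for GFP-only minus double-positive, 0.858% for double-positive minus mCherry-only, 1.06% for double-positive minus double-negative and 0.761% for mCherry-only minus double-negative cells. The share was 1.72% for GFP-positive minus GFP-negative cells, 0.51% for GFP-only cells against the 3 others and 0.561% for mCherry-negative minus mCherry-positive cells.

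For some of these genes the 2 tumours stood as far apart as the populations did. With the population held fixed, tumour 1 minus tumour 2 gave 0 members past limma's adjusted threshold (all probe sets 0.568%), with 3 higher (9.59%) and 6 lower (11.5%) by the unadjusted p. The median was -0.24 (-0.12 over all probe sets). Kif20a had the largest value, 1.54 ± 0.34 (adjusted p = 0.0721, limma), but the other kif20a probe set gave -0.16 ± 0.36 (0.827). Ccnd1 followed at 1.53 ± 0.41 (0.108), with 1.47 ± 0.37 (0.0952) for its other probe set. Ncapd3 gave 1.25 ± 0.51 (0.207), or 0.70 without the tumour 1 GFP-only array, while ccnb1l at -1.24 ± 0.48 (0.190) and bub3 at -1.24 ± 0.34 (0.112) were on the tumour 2 side. The other bub3 probe set gave 0.18 ± 0.36 (0.799). The bub3 probe set used had levels of 4.97 and 5.93 in GFP-only cells, 5.54 and 6.41 in double-positive cells, 5.35 and 6.87 in mCherry-only cells, and 5.23 and 6.82 in double-negative cells, with every tumour 1 array under every tumour 2 array. The median of tumour 1 minus tumour 2 over the members was -0.08 in GFP-only cells, -0.36 in double-positive cells, -0.40 in mCherry-only cells and 0.04 in double-negative cells.

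Across the 8 arrays the members moved together only weakly. The median correlation between pairs of members was 0.093, against 0.008 for all probe sets, and it was 0.313 among the kinesins, 0.197 among the cohesin, condensin and topoisomerase genes, 0.087 among the checkpoint and kinetochore genes, -0.02 among the cyclins and -0.348 in the Cdc20 and Cdc25 group. These are descriptions over arrays that share 2 tumours.

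Probe sets of one gene did not always agree in sign. The 17 genes with more than 1 probe set had 31 further probe sets, and in 7 of these genes the probe sets differed in the sign of GFP-only minus mCherry-only cells. None of the 31 passed limma's adjusted threshold (0.858% of all probe sets). At an unadjusted p under 0.05 there were 4, each with a positive difference (all probe sets 5.88% higher and 5.37% lower). They belonged to ncaph (1.99 ± 0.69, against 0.95 for the probe set used and 0.045 for another), top2a (1.86 ± 0.71, against 0.61), smc2 (1.79 ± 0.63, against -0.47) and cdk8 (1.28 ± 0.55, against -0.12). The remaining top2a probe sets differed in sign, with means of 4.15 in GFP-only and 4.91 in mCherry-only cells, 4.755 and 5.06, and 2.815 and 2.59. Smc2 is a core subunit of both condensins and top2a the topoisomerase II of dividing cells, so for these condensin and topoisomerase genes the sign or size depended on the probe set. For ccnd1 both probe sets had a positive difference, 1.94 and 1.26.

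Other genes of the same pathways, listed apart from the 64 members, were also counted, and none of them passed the test. Of 73 further mitosis genes 57 were measured, and 0 passed limma's adjusted threshold for GFP-only minus mCherry-only cells with or without the block. At an unadjusted p under 0.05, 7 were higher and 0 lower, against 5.88% and 5.37% of all probe sets, and the median was 0.41 (-0.08 over all probe sets). The smallest p belonged to cks1b, which binds Cdk1, with log2 levels of 6.32 and 6.10 in GFP-only cells, 4.54 and 5.74 in double-positive cells, 3.65 and 4.32 in mCherry-only cells, and 5.66 and 5.46 in double-negative cells, and a difference of 2.22 ± 0.59 (adjusted p = 0.169, limma). The chromatin protein gene hmgb2b gave 2.24 ± 0.63 (0.198) and cdca7b 1.53 ± 0.52 (0.307). For replication and G1/S genes, 54 of 63 measured, 0 passed the adjusted threshold with or without the block, 14 had an unadjusted p under 0.05, each with a positive difference (all probe sets 5.88% higher and 5.37% lower), and the median was 0.76. Orc5, of the origin recognition complex, gave 1.94 ± 0.62 (0.281), rpa2, of the single-strand binding protein, 2.34 ± 0.77 (0.290) and rfc4, of the clamp loader, 1.54 ± 0.53 (0.309). Of 30 listed p53, RB and other cyclin genes 22 were measured, 0 passed, and only ccng2 had an unadjusted p under 0.05 (-1.56 ± 0.69, adjusted p = 0.436, limma). The median was 0.17.

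In mCherry-only minus double-negative cells the replication list had 0 genes past limma's adjusted threshold and 6 with an unadjusted p under 0.05, each with a negative difference (all probe sets 2.46% lower and 3.72% higher), and a median of -0.54 (0.04 over all probe sets), with tfdp1a, the partner of E2F factors, at -2.17 ± 0.61 (adjusted p = 0.335, limma). The mitosis list had 0 past the threshold, 2 with an unadjusted p under 0.05, each with a negative difference (against the same 2.46%), and a median of -0.29. The 2 were cks1b at -1.58 ± 0.59 (0.654) and foxm1, a transcription factor of G2/M genes, at -2.18 ± 0.92 (0.763). The foxm1 value came mainly from tumour 2. Its mCherry-only and double-negative levels were 2.16 and 2.36 in tumour 1, and 0.51 and 4.68 in tumour 2. Of these only 4.68 lay above 3.38, the lowest lower quartile of any array.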

How the data were processed

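The deposited table of log2 values (read as log2; the sources used here do not give the base, probe summary or scaling) covers 15502 probe sets on 8 arrays made by the authors with the NuGEN Ovation Pico WTA system, per the labels' protocols. Values were used as deposited, and 0 value columns were unmapped. Of the probe sets, 10795 had 1 gene symbol, 135 several and 4572 none in the array annotation; 1 symbol was updated through RefSeq names.

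All probe sets were fitted with 4 population means on all 8 arrays by lmFit and eBayes (limma 3.58.1, R 4.3.3; 4 residual degrees of freedom). Tests were two-sided, with Benjamini-Hochberg adjustment over all probe sets in each comparison and a threshold of 0.05. Errors are limma standard errors. The pipeline was tested on simulated data. Precision is limited by the number of arrays.

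The populations are paired, since equal numbers in the labels mark 1 tumour. Correlations of same-numbered deviations from population means ran from -0.0291 to 0.492. A blocked fit on tumour was an alternative, beside other normalizations, filters, omitted arrays and averaged probe sets.

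Members, lists and role groups were chosen with earlier results of these data known. Described one by one are lmnb2, the members with the smallest unadjusted p under 0.05 in each comparison (up to 12 or 5), the 2 with the highest mean and the 1 with the largest GFP difference in each role group, and the 5 with the largest tumour difference; for pathway lists up to 3. The other genes named with values were chosen after their values were seen.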

Additional observations from a re-analysis of the deposited data

How the results depend on the processing

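With the tumour as a replicate block, 0 members passed the adjusted threshold of 0.05 in any comparison of populations, so the block changed no call; the lowest blocked adjusted p in GFP-only minus mCherry-only cells was that of lmnb2, 0.0721. No difference of a gene followed through the alternatives run for its comparison changed sign. That of ccnd1 between GFP-only and double-negative cells, not followed in this way, did. Of the values followed, 529 kept their side of the threshold and 5 passed it. Among the summary values, 262 kept their side or stayed within the spread between tumours and 26 did not. Among the values that passed it, that of lmnb2 in GFP-only minus mCherry-only cells came from a fit without 1 array. So did those of cdk1 in double-positive minus double-negative, mCherry-only minus double-negative and mCherry-negative minus mCherry-positive cells. These are not read as calls. Leaving out 1 array at a time left 1 array in a population, with no replicate spread there. The median member difference then ranged from 0.0775 to 0.45 for GFP-only minus mCherry-only, 0.1175 to 0.355 for mCherry-negative minus mCherry-positive, -0.0275 to 0.0975 for GFP-only minus double-negative, -0.0075 to 0.38 for GFP-only minus double-positive, -0.105 to 0.3325 for double-positive minus mCherry-only, -0.365 to -0.035 for double-positive minus double-negative, -0.46 to -0.115 for mCherry-only minus double-negative and -0.0913 to 0.1313 for GFP-positive minus GFP-negative cells. The sign turned under at least 1 alternative for GFP-only minus double-negative, GFP-only minus double-positive, double-positive minus mCherry-only and GFP-positive minus GFP-negative cells. The GFP-positive minus GFP-negative median was -0.0186 after quantile normalization, 0.0337 after median centring, 0.0756 with a gene's probe sets averaged and 0.1775 without both tumour 2 arrays of GFP-negative cells. Without those arrays, the GFP-only minus double-negative median was 0.075. Without the dimmest 30% of probe sets, which left 54 members, kif20a passed for tumour 1 minus tumour 2 (adjusted p = 0.0451, limma), 1 member against 0. The cause of these shifts was not tested. Fits on the compared arrays alone were not run for comparisons that use all 8. Tumour differences were not fitted with a gene's probe sets averaged. For kif20a and bub3 the other probe set gave a tumour difference of the opposite sign. Signal over background was not analysed here, so dim members such as cenpk carry an unknown background share.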
